A study of Rattus norvegicus with 6 samples.

Results

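Mitochondrial ribosomal protein genes were followed through H3K27me3 chromatin immunoprecipitation lists of neonatal rat cardiomyocytes. The members were the entries whose gene symbol, case ignored, starts with Mrpl or Mrps and a digit, in any of the deposited lists. This gave 59 entries with 58 different symbols, of 22427 entries in all. The rule chose by name, but a gene could enter only if at least 1 library listed it. Shares per library are thus shares of genes listed at least once, and this holds for the 22427 entries as well. The primary cardiomyocytes came from hearts of neonatal Sprague Dawley rats and were given α-ketoglutarate (alpha KG, below α-KG) at 5 mM for 24 h or, as PBS control, phosphate-buffered saline for the same time. Both had been grown on coated plates in DMEM with fetal bovine serum, and 2 libraries of each, α-KG 1, α-KG 2, control 1 and control 2, had a list. The 2 samples titled as inputs, whose labels give IgG as the antibody, were not analysed here. Each list names genes with a peak of trimethylated lysine 27 of histone H3 and gives no count, height or position. An absent gene can be one without the mark or one whose signal was too weak to be called, and the read depth behind each list is unknown. The labels do not say whether the 2 libraries of a group came from separate cultures. Every result is thus a count of listed genes, set beside the same count over all 22427 entries, and no p-value was computed, since 59 chosen genes are not replicates of a treatment.

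The mitochondrial ribosome translates the messages of the mitochondrial genome, which encode core subunits of the respiratory chain and ATP synthase. All of its proteins are encoded in the nucleus and imported, whereas its RNAs are made inside the organelle. The small subunit decodes the message and the large subunit joins amino acids, and each combines proteins inherited from the bacterial ancestor with proteins that arose in mitochondria. The genes are active in nearly all cells, and heart muscle has a high demand for their product. H3K27me3 is placed by Polycomb complexes and is known mainly from silent developmental genes. Its removal by JmjC demethylases uses α-KG as a cosubstrate.

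The mitochondrial ribosomal genes were listed less fully than genes at large in every library. α-KG 1 listed 39 of the 59 entries (66.1%) and α-KG 2 listed 49 (83.1%), while control 1 listed 33 (55.9%) and control 2 listed 42 (71.2%). Over all entries the shares were 80.8% in α-KG 1, 85.5% in α-KG 2, 76.9% in control 1 and 82.2% in control 2. The group means were 44.0 ± 7.07 entries in α-KG libraries and 37.5 ± 6.36 in control libraries (SD, n = 2 each). The difference of 6.5 entries was 17.3% of the control mean, against 4.52% for all entries. It lay within the spread of the α-KG libraries, and α-KG 1 stood below control 2, so the groups overlapped. Of the 59 entries, 10 (16.9%, against 6.96% of all entries) were in α-KG 2 alone. These are members only through that library, which raises the difference. Both second replicates listed more members than the first ones, with a mean of 45.5 against 36.0 entries. By number, α-KG 1 exceeded control 1 by 6 entries and α-KG 2 exceeded control 2 by 7, against 875 and 739 over all entries. Without α-KG 2 the difference between group means was 1.5 entries, and without control 1 it was 2.0. It was 11.5 without α-KG 1 and 11.0 without control 2.

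**Figure D1:**
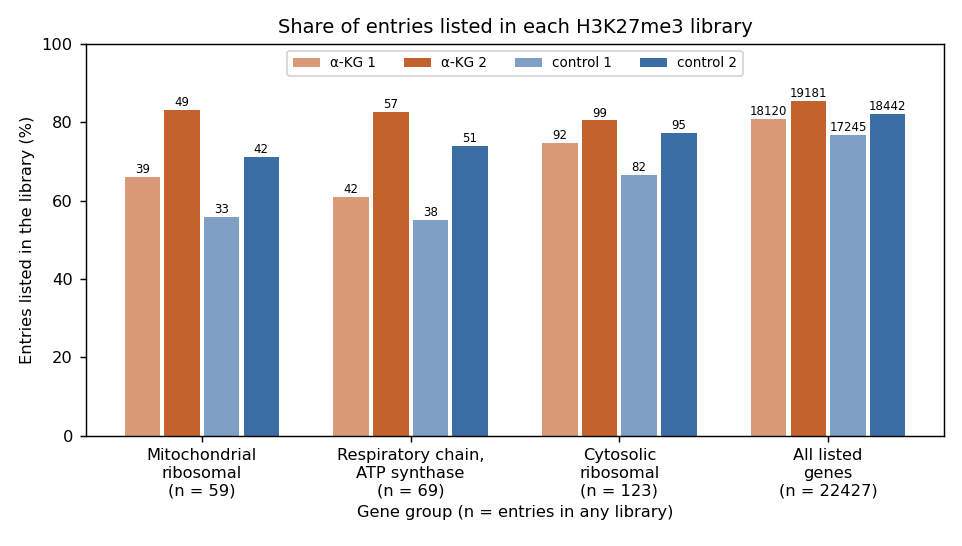
Share of entries listed in each H3K27me3 library (vertical axis, %) for mitochondrial ribosomal protein genes, respiratory chain and ATP synthase subunit genes, cytosolic ribosomal protein genes and all listed genes, with the number of listed entries above each bar. Orange bars are α-KG libraries and blue bars control libraries, and among the mitochondrial ribosomal genes the bars run between 55.9% in control 1 and 83.1% in α-KG 2.

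Only 24 of the 59 entries (40.7%) were listed in all 4 libraries, against 62.8% of all entries. At the other end, 15 members (25.4%) were listed in a single library, against 13.0% of all entries. Between these, 12 were in 3 libraries and 8 in 2.

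In the small subunit, 12 members were listed in all 4 libraries, and they include proteins from each part of the particle. Mrps7 and Mrps9 have bacterial counterparts that bind the RNA of the head, and Mrps6, Mrps15 and Mrps16 have counterparts in the body and platform. Mrps24 is the counterpart of bacterial S3, which lines the path of the incoming message. Mrps22, Mrps26, Mrps27, Mrps31, Mrps33 and Mrps34 have no bacterial counterpart, and Mrps27 is a pentatricopeptide repeat protein. In humans, variants of MRPS22 cause respiratory chain deficiency with cardiomyopathy, and variants of MRPS16 and MRPS34 cause respiratory chain deficiency as well. Being grouped by a full listing, these 12 could show no contrast between α-KG and control, since the lists give no peak height.

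In the large subunit, 12 members were also listed throughout. Mrpl1 is the counterpart of the protein of the mobile stalk through which used tRNA leaves, and Mrpl23 sits at the exit of the tunnel for the new chain. Mrpl13, MRPL14, Mrpl15, Mrpl19, Mrpl33 and Mrpl35 have bacterial counterparts, while Mrpl42 and Mrpl46 do not. Mrps18a and Mrps30 were named as small subunit proteins but lie in the large subunit of the mammalian particle, and were counted there.

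**Figure D2:**
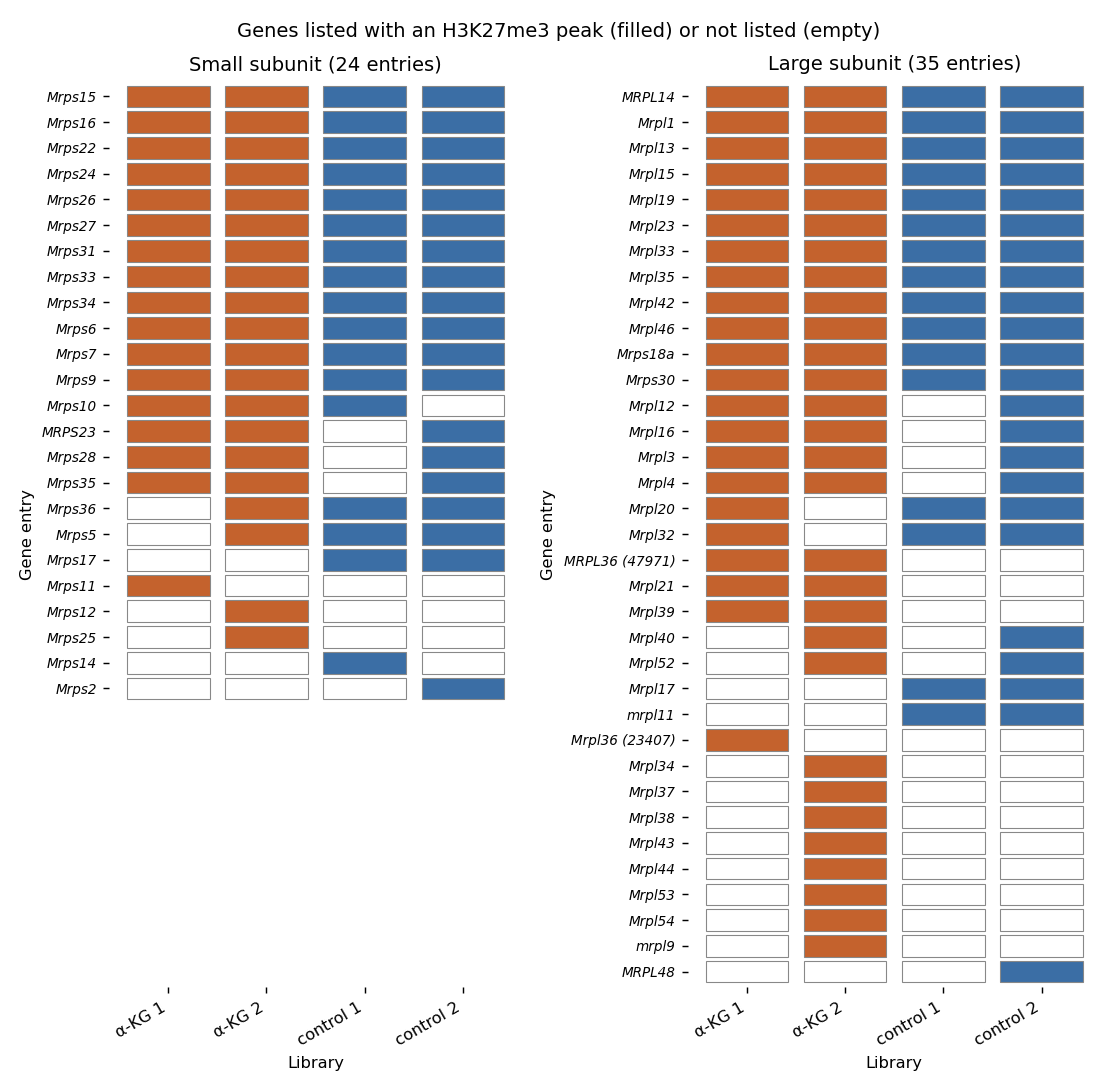
Listing of each of the 59 entries (rows) in the 4 libraries (columns, α-KG in orange and control in blue), with the 24 small subunit entries in the left panel and the 35 large subunit entries in the right. A filled box means that the library lists the gene and an empty box that it does not, and the digits beside the Mrpl36 entries are the ends of their Ensembl identifiers. The 12 full rows at the top of each panel are the members listed in all 4 libraries.

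Loss under α-KG, meaning a listing in control 1 and control 2 with none in α-KG 1 or α-KG 2, was seen for 3 members. They were mrpl11, whose bacterial counterpart forms part of the site where translation factors hydrolyse GTP, Mrpl17, which lies near the tunnel exit, and Mrps17, a small RNA-binding protein of the small subunit. All 3 have bacterial counterparts. They make up 5.08% of the 59 entries, beside 2.30% of all entries, and a share that rests on 3 genes was not tested. Among entries listed in both controls, 3 of 31 members (9.68%) were lost, against 3.22% of all such entries. The count was 5 without α-KG 1, without α-KG 2 or without control 1, and 4 without control 2. Over all entries the share lost ran between 4.03% and 6.10% in these 4 settings, so that the background moved with the members.

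The promoter windows of the 3 lost genes are shown because the genes share a listing pattern, so that their base composition can be compared directly. They come from RefSeq on build GRCr8, which is not the rn6 build named in the submitters' processing notes, and run from 250 bases before to 50 bases after the annotated start. The window of mrpl11 is chr1:211693557-211693856 on the plus strand, that of Mrpl17 is chr1:169575650-169575949 on the minus strand, and that of Mrps17 is chr12:32587763-32588062 on the minus strand. Each is written 5′ to 3′ along the gene. Capitals mark matches, on either strand, to GCATGCGC, the core of the NRF1 motif, to CCGGAAG, known for GABP and other ETS factors, to AAGATGGC, known for YY1, or to TATAAA, a core promoter element. Positions are counted from the annotated start, with +1 as its first base and -1 as the base before it.
mrpl11: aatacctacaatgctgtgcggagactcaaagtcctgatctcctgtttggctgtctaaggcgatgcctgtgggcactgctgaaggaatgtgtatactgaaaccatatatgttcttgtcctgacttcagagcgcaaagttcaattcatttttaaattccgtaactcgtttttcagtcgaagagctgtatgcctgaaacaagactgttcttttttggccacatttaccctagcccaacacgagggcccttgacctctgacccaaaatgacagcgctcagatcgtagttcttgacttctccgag
Mrpl17: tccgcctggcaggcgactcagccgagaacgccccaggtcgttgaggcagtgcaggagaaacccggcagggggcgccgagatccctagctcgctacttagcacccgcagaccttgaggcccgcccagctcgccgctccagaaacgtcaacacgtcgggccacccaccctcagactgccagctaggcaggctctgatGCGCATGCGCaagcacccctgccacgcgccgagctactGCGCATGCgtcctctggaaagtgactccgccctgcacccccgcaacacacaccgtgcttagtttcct
Mrps17: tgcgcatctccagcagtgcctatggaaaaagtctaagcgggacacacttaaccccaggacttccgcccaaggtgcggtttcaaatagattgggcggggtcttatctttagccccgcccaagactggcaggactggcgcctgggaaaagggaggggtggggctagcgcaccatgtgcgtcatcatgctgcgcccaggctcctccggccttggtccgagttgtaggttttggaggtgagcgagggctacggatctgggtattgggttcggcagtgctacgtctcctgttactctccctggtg
The windows differ widely. Mrpl17 has a GC content of 66.0% and 26 CpG dinucleotides, and 3 matches to the NRF1 core, 2 of which overlap. Mrps17 has 59% GC and 16 CpG, and mrpl11 has 45.7% GC and 10 CpG. Neither mrpl11 nor Mrps17 holds any of the 4 motifs. The lists do not say where in a gene a peak lay, so a match describes the window and is not evidence of a bound site.

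Gain under α-KG, the reverse pattern, was also seen for 3 members, all of the large subunit. Mrpl21 and MRPL36 have bacterial counterparts and Mrpl39 does not. They make up 5.08% of the entries, beside 3.25% of all entries. Among entries listed in both α-KG libraries, 3 of 35 members (8.57%) were gained, against 4.48% of all such entries. The count was 13 without α-KG 1, 10 without control 2, 5 without α-KG 2 and 4 without control 1. Without α-KG 1 this was 22.03% of members, against 10.2% of all entries, and without control 2 it was 16.9%, against 8.16%. Without α-KG 2 it was 8.47%, against 5.28%, and without control 1 it was 6.78%, against 4.94%. The background thus rose as well, but it stayed below the share of members in each setting. The gap was widest without α-KG 1, where members listed in α-KG 2 alone count as gained, and it was not tested.

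MRPL36 is the 1 member with more than 1 entry. The entry ENSRNOG00000047971 was the gained one, and a further entry of the same name, ENSRNOG00000023407, was listed in α-KG 1 alone. Both carry the same protein domain, and no other entry in the lists has it. RefSeq has 1 protein-coding gene of this name, and the sequences of the entries were not compared. Whether reads were divided between the entries was not tested, so the state of each is uncertain. Neither entry was listed in a control library, and counted as 1 gene Mrpl36 kept the gained pattern.

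By symbol, windows were found for 2 of the 3 gained genes, Mrpl36 at chr1:31795072-31795371 and Mrpl39 at chr11:37281495-37281794, both on the minus strand. The window of Mrpl36 could not be tied to either Ensembl entry, so it may belong to the entry that was not gained. They are marked in the same way as the windows of the lost genes.
Mrpl36: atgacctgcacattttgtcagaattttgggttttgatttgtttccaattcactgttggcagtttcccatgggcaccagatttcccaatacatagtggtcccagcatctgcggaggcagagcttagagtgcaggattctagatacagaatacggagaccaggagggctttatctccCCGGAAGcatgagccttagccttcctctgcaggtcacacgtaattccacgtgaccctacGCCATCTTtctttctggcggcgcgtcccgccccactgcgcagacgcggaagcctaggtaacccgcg
Mrpl39: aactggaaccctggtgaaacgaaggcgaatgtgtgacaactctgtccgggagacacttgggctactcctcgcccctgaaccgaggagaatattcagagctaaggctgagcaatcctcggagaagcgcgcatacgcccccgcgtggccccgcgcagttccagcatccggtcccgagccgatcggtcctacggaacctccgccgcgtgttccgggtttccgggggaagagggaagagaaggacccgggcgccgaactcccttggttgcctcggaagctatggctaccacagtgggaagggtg
Mrpl36 has 53% GC and 15 CpG, with 1 ETS match that begins at position -75 and 1 YY1 match at position -16. Mrpl39 has 62.3% GC and 27 CpG and holds none of the 4 motifs. In GC content and CpG number, Mrpl39, like Mrpl36, lay within or within 1 CpG of the range of the lost genes.

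The commonest pattern after a full listing was a listing in α-KG 2 alone. It held 10 of the 59 entries (16.9%), against 6.96% of all entries. Mrpl44, a protein with a ribonuclease III fold whose human counterpart is mutated in an infantile hypertrophic cardiomyopathy, was one of them. Others were Mrps12, whose bacterial counterpart S12 monitors decoding, and mrpl9 and Mrpl34, which also have bacterial counterparts. Mrpl37, Mrpl38, Mrpl43, Mrpl53, Mrpl54 and Mrps25 are specific to mitochondria. The other libraries listed none of these 10, so they are members only through α-KG 2. The list of α-KG 2 was the longest of the 4, with 19181 entries against 17245 to 18442 in the other three.

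A second group of 7 members (11.9%, against 4.91% of all entries) was missing from control 1 only. It holds Mrpl12, the counterpart of the stalk protein that recruits translation factors, and Mrpl3, a core protein whose human counterpart is mutated in a cardiomyopathy. Mrpl4 and Mrpl16 are further core proteins with bacterial counterparts, and MRPS23, Mrps28 and Mrps35 belong to the small subunit. Control 2 listed all 7, and control 1 had the shortest list, with 17245 entries. Leaving control 1 out raised the number of members listed throughout to 31 (52.5%, against 67.7% of all entries). Leaving out any other library gave 25 or 26.

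The remaining members fell into small groups. Mrps36, which has been assigned to the α-KG dehydrogenase complex and is named Kgd4 in RefSeq, was listed in α-KG 2 and both controls. Only by its older name is it counted here in the small subunit and among proteins specific to mitochondria. Mrps5, of the message entry site, had the same pattern. Mrpl20 and Mrpl32, of which Mrpl32 is a substrate of a mitochondrial AAA protease, were listed in α-KG 1 and both controls. Mrps10, of the head of the small subunit, was missing from control 2 only. Mrpl40, from the DiGeorge deletion region in humans, and Mrpl52 were listed in α-KG 2 and control 2. Single listings were Mrps11 in α-KG 1, Mrps14 in control 1, and Mrps2 and MRPL48 in control 2. In all, 35 of 59 entries (59.3%) varied between libraries, against 8350 (37.2%) of all entries. The division followed the treatment for 6 of the 35 members, and for 516 lost and 729 gained of the 8350 entries, which is a similar share.

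**Figure D3:**
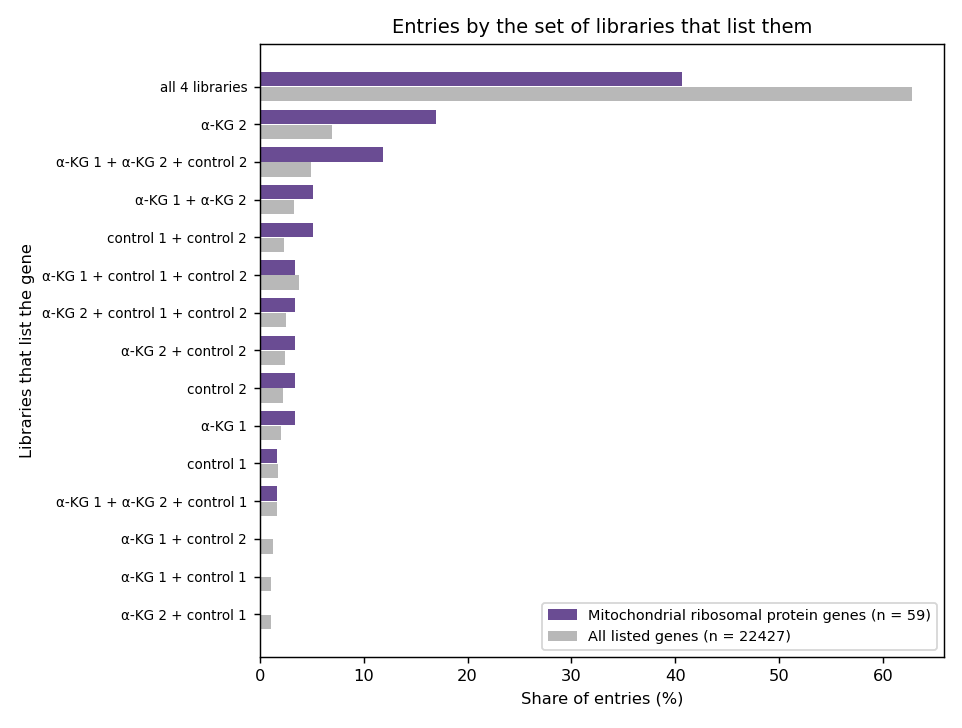
Share of entries (horizontal axis, %) by the set of libraries that list them, for the 59 mitochondrial ribosomal entries in purple and all 22427 entries in grey. The purple bar is shorter than the grey one for a full listing (40.7% and 62.8%) and longer for α-KG 2 alone (16.9% and 6.96%).

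The subunits were listed to different extents, which is a description of these libraries without a test. Of 35 large subunit entries, α-KG 1 listed 22 and α-KG 2 listed 29, while control 1 listed 16 and control 2 listed 23. Of 24 small subunit entries, α-KG 1 listed 17 and α-KG 2 listed 20, while control 1 listed 17 and control 2 listed 19. The mean difference between α-KG and control was thus 6.0 entries for the large subunit and 0.5 for the small one. Of the large subunit entries 8 (22.9%) were in α-KG 2 alone, and of the small subunit entries 2 (8.33%), against 6.96% of all entries. Such entries are members only through α-KG 2, which raises the α-KG mean. Within the large subunit α-KG 1 lay below control 2, so the groups overlapped there too. Between libraries of the same number, the difference was 6 and 6 entries for the large subunit and 0 and 1 for the small one. Listing in all 4 libraries held for 12 of 35 large subunit entries (34.3%) and 12 of 24 small subunit entries.

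By descent, the 36 entries with a bacterial counterpart and the 23 without one had similar full listings, 15 (41.7%) and 9 (39.1%). The share over all entries was 62.8%. The entries with a counterpart numbered 27 in each α-KG library, 23 in control 1 and 27 in control 2. Those specific to mitochondria varied more, with 12 in α-KG 1, 22 in α-KG 2, 10 in control 1 and 15 in control 2. Of these 23, 7 (30.4%) were in α-KG 2 alone, against 3 of the 36 with a counterpart (8.33%) and 6.96% of all entries. Such entries are members only through α-KG 2, which widens the range. The 13 large subunit proteins specific to mitochondria had the widest range as a share of their number, 4 in α-KG 1, 12 in α-KG 2, 3 in control 1 and 6 in control 2. Of these 13, 6 (46.2%, against 6.96% of all entries) were listed in α-KG 2 alone. They are Mrpl37, Mrpl38, Mrpl43, Mrpl44, Mrpl53 and Mrpl54. The mean of the 13 was 8.0 entries in α-KG libraries and 4.5 in controls, with SDs of 5.66 and 2.12 (n = 2 each). The difference thus lay within the spread of the α-KG pair.

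Of the 8 protein domains shared by members, 6 joined members with different listings and 2 joined members with the same one. Mrpl37 and Mrps30 are the only listed genes with the L37/S30 domain, and Mrpl37 was listed in α-KG 2 alone while Mrps30 was listed in all 4 libraries. MRPL48 and Mrps10 share the S10 domain, and no library listed both. Mrpl32 and Mrpl33 share a zinc-binding domain and differed only in α-KG 2, which lacked Mrpl32. The domain common to ribosomal proteins and NADH dehydrogenase was found in Mrpl43 and Mrps25, both in α-KG 2 alone, and in Ndufa2, a complex I subunit listed in α-KG 1 alone. The thioredoxin-like fold joined Mrpl43, Mrpl53 and Mrps25, all 3 in α-KG 2 alone, and 131 entries of any gene carry it.

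Some mitochondrial ribosomal genes had no entry at all. RefSeq (GRCr8) has 82 protein-coding genes that the same rule names by symbol or older symbol, and 60 of them (73.2%) had an entry, against 77.0% of all named protein-coding genes. Of the 82, 24 (29.3%) were listed in all 4 libraries, against 49.4% of all named genes. The 22 genes without an entry include Mrpl10 and Mrpl2, counterparts of the stalk base and of a core protein next to the peptidyl transferase site. They also include Mrpl22, mrpl24 and Mrpl45 of the tunnel exit, Mrps18b, Mrps18c and Mrps21 of the small subunit, and Mrpl18, Mrpl27, Mrpl28, Mrpl30, Mrpl41, Mrpl47, Mrpl49, Mrpl50, Mrpl51 and Mrpl55 of the large subunit. The last 4 are the related copies Mrpl41l1, Mrpl42l1, Mrps21l and Mrps36l1. Genes renamed between annotations can be missed by such a match, and this holds for the background as well.

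Subunits of the particle that carry other names had mixed listings. Dap3, a GTP-binding protein of the small subunit, Chchd1 and Gadd45gip1 were in all 4 libraries. Ict1, a peptidyl-tRNA hydrolase now named Mrpl58, was in α-KG 2 and control 2, and Mrp63, now Mrpl57, was in α-KG 2 alone. With these 5 added, 27 of 64 entries were listed throughout, and 3 were lost and 3 gained.

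The neighbours of a member along the chromosome were examined because a broad H3K27me3 domain can cover several genes. Order was taken from RefSeq, and the 2 flanking protein-coding genes of each member were looked up. Of the listed neighbours of fully listed members, 28 of 41 (68.3%) were themselves in all 4 libraries, beside 70.2% for all fully listed genes. For members in 1 to 3 libraries the count was 35 of 55 (63.6%), beside 56.1% for all such genes. Several fully listed members adjoin developmental or signalling genes that were also in all 4 libraries, and these were chosen after their values were seen. Mrps9 adjoins the neural transcription factor gene Pou3f3, Mrpl15 adjoins Sox17, Mrps30 adjoins Fgf10, Mrps18a adjoins Vegfa and Mrpl23 adjoins the imprinted growth factor gene Igf2.

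The lost and gained members also mostly lay beside genes in all 4 libraries. Such neighbours are common, at 56.1% for all genes in 1 to 3 libraries, and no share was computed for all lost or gained genes. The lost gene mrpl11 lies between Peli3 and Npas4, and Mrps17 lies between Nipsnap2 and Septin14, and these 4 neighbours were in all 4 libraries. Dchs1, beside Mrpl17, was in all 4 as well. Among the gained genes, Jam2 beside Mrpl39 was in all 4. The RefSeq gene Mrpl36, which may be the gained entry or the entry in α-KG 1 alone, lies between Lpcat1 and Ndufs6, both in all 4. Mrpl21 was the exception, since it lies between Cpt1a, in all 4 libraries, and Ighmbp2, which was lost under α-KG. Gain and loss thus stood side by side at Ighmbp2 and Mrpl21.

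A neighbour with exactly the pattern of a varying member was found in 6 of 55 cases (10.9%, beside 7.05% for all such genes). Mrpl38 and both of its neighbours, Trim65 and Fbf1, were in α-KG 2 alone, as were Mrpl54 and Apba3. The other pairs were MRPL48 with Coa4, in control 2 alone, and Mrpl12 with Slc25a10 and Mrpl4 with S1pr2, each missing from control 1 only.

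Mrpl46 and Mrps11 are neighbours of each other and are read in opposite directions, and they were listed differently, Mrpl46 in all 4 libraries and Mrps11 in α-KG 1 alone. Their promoter windows share 267 bases, so a single window shows nearly all of both. That of Mrpl46, chr1:142116981-142117280 on the minus strand, is given with the same marking, because a peak over it would touch the starts of both genes.
Mrpl46: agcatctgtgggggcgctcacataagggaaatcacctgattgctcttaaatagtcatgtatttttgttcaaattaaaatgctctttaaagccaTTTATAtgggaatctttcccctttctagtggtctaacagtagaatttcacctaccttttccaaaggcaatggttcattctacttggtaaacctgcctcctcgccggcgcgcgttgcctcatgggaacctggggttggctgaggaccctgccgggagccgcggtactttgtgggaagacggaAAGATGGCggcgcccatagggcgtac
It has 49.3% GC and 13 CpG, with a YY1 match at position 25 and a TATAAA match at position -157, both counted from the start of Mrpl46. With no peak positions, how the authors assigned a peak to 1 gene of such a pair is not given in the sources used here.

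Windows were found for 44 of the 58 member symbols, and their composition did not separate full from partial listing. The median ratio of observed to expected CpG was 0.713 for the 17 members listed in all 4 libraries and 0.724 for the 27 listed in fewer. It was 0.818 for the 21 rule-named RefSeq genes with no entry and a window. Over all 19005 windows it was 0.549, and genes listed in all 4 libraries had 0.725 while those in none had 0.278. The fully listed members were therefore close to fully listed genes at large, while the genes of this family without an entry had a higher median than other genes without one, a difference that was not tested. Mrps6 had the lowest ratio of the members, 0.150, and Mrps10 the highest, 1.27.

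**Figure D4:**
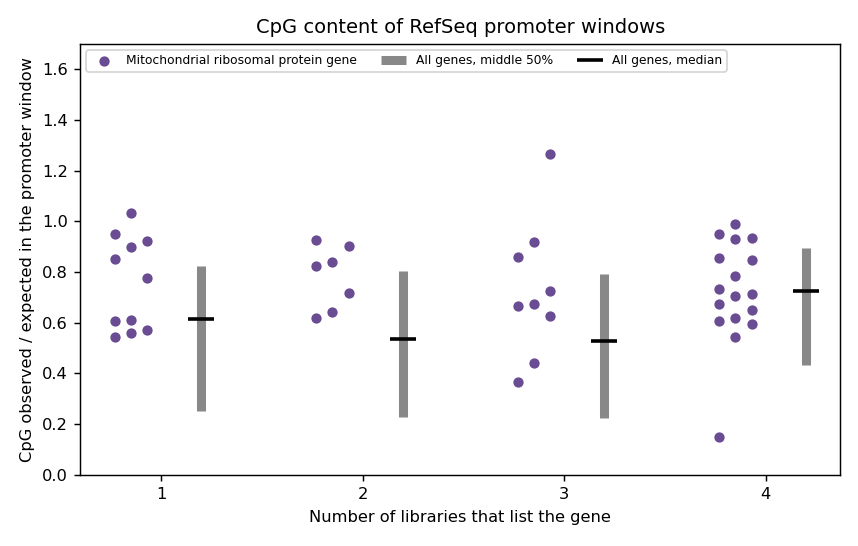
Ratio of observed to expected CpG in the RefSeq promoter window (vertical axis) against the number of libraries that list the gene (horizontal axis). Purple points are the 44 mitochondrial ribosomal genes with a window, and the grey bar and black mark give the interquartile range and the median of all genes, with 0.725 as the median in 4 libraries.

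Motifs known from genes of mitochondrial biogenesis, and the core promoter element TATAAA, were searched in the windows, on both strands. The YY1 letters were in 12 of 44 member windows (27.3%), against 3.92% of all windows, and in 7 of the 17 fully listed members and 5 of the 27 others. The ETS letters were in 14 (31.8%), against 11.2%. The NRF1 core was in 3 (6.82%), against 3.23%, and these 3 were Mrpl17, Mrpl32 and Mrpl44, none of them fully listed. The TATAAA letters were in 7 (15.9%), against 13.1%. These are counts of letters in a fixed window, and no factor was measured.

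Other genes of mitochondrial translation were set beside the ribosomal ones as counts. Over all entries, 62.8% were in all 4 libraries, 2.30% lost, 3.25% gained and 6.96% in α-KG 2 alone. Among 17 entries for mitochondrial aminoacyl-tRNA synthetases and related enzymes, which charge the tRNAs, 8 (47.1%) were in all 4 libraries, 0 were lost, 0 were gained and 5 (29.4%) were in α-KG 2 alone. Aars2, Cars2 and Fars2 were among the 8, and the 5 are Hars2, Iars2, Pars2, Qrsl1 and Tars2. Of 15 entries for translation factors and their partners, 9 (60.0%) were in all 4, near the share of all entries, among them Gfm1, Guf1, Letm1 and Lrpprc, and 0 were lost or gained. The elongation factor genes Tufm and Tsfm were missing from control 1 only, like Mrpl12 and Mrpl3. Ribosome assembly factors had 9 of 21 entries (42.9%) in all 4, including Dhx30, Fastkd2 and Malsu1, while Ddx28 was missing from control 2 only. They had 3 lost entries (14.3%) and 0 gained. The lost ones were Eral1, a chaperone of the small subunit RNA, Gtpbp10, a GTPase that acts on the large subunit, and 1 of the 2 entries for the RNA methyltransferase gene Nsun4. The other Nsun4 entry was in α-KG 1 and control 2.

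The families most like the mitochondrial ribosomal genes gave the following values, without a test of the difference. Of 69 entries for respiratory chain and ATP synthase subunits, 28 (40.6%) were in all 4 libraries, 8 (11.6%) in α-KG 2 alone, 2 lost (Ndufa3 and Ndufa4) and 2 gained (Ndufb6 and 1 of the 2 entries for Ndufb4, the other being in all 4). Of 123 entries for cytosolic ribosomal proteins, many of them copies of the same gene, 65 (52.8%) were in all 4, 12 (9.76%) in α-KG 2 alone, 2 lost (Rps27 and Rps9) and 8 gained. The 8 are Rpl13a-ps1, Rpl31, Rpl35a, RPL38, Rps16, Rps23, Rps27a and Rps4y2, and for Rpl35a and RPL38 this holds for 1 of 5 and 1 of 6 entries of the name. Both families thus lay, like the mitochondrial ribosomal genes, below 62.8% for a full listing and above 6.96% for α-KG 2 alone.

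Markers of cell types could not test the label, since the mark does not measure expression. Of 10 listed cardiomyocyte markers, α-KG 1 and α-KG 2 named 6 and 7 and control 1 and control 2 named 6 and 7. Actc1, Actn2, Myl2, Pln and Tnnt2 were in all 4 libraries, and Myh7 and Myl7 were in α-KG 2 alone. Nppa was in control 2 alone, Tnni3 was in α-KG 1 alone and Ryr2 was lost under α-KG. Over all entries, 62.8% were in all 4 libraries and 2.30% were lost. Myh6 had no entry. Of 7 listed fibroblast markers, α-KG 1 and α-KG 2 named 4 and 6 and control 1 and control 2 named 7 and 5. Of 6 endothelial markers, α-KG 1 and α-KG 2 named 5 and 6 and control 1 and control 2 named 4 and 6. Both listed immune markers, Csf1r and Ptprc, were named by every library, and of 2 listed smooth muscle markers control 1 alone lacked 1. The immune markers Adgre1, Cd3e and Cd68 had no entry. The smooth muscle markers Acta2 and Tagln and the fibroblast marker Col1a2 had none either. Their part in the listing of the ribosomal genes was not tested.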

How the data were processed

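H3K27me3 immunoprecipitation libraries of neonatal rat cardiomyocytes, 2 from α-KG and 2 from PBS control cells, were grouped by the labels. The lists deposited by the authors give the Ensembl gene ID, symbol and protein domains of each gene with a peak, 1 list per library, with no header, score or position. CASAVA, BWA, MACS2 and the rn6 build stand in the submitters' processing notes, without roles or versions. For the assignment of peaks to genes, and for any use of an input, the method is not given in the sources used here. Read depth is unknown, so no interval is given for any share. Intervals at 95% were computed only to sort the alternative backgrounds, and no statement here rests on them.

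Lists were read with Python 3.11.15, pandas 2.3.3 and numpy 2.4.6, and drawn with matplotlib 3.10.9. Entries were counted by Ensembl ID. Lost meant listed in control 1 and control 2 and in no α-KG library, and gained the reverse. Pattern counting was tested on simulated lists. Subunit and descent were assigned by gene name. RefSeq (GRCr8) genes were matched by symbol or 1 older symbol and served for names, gene order and promoter windows, since rn6 differs. Members and lists were chosen with earlier results of these data known. Every member is named with its pattern, and of other lists the lost and gained genes and up to 4 others in alphabetical order. A few more, and all listed cardiomyocyte markers, were named after their values were seen. The alternatives were each library left out in turn, the replicate block, 1 entry per symbol, RefSeq-matched entries, added subunits and other backgrounds.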

Additional observations from a re-analysis of the deposited data

How the results depend on the processing

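Leaving out 1 library at a time moved the difference in listed members between α-KG and control by more than 1.5 times in every case, and it ranged from 1.5 to 11.5 entries around 6.5 without a change of sign. Over the same settings lost members ranged from 4 to 5 around 3, gained members from 4 to 13 around 3, and members listed throughout from 25 to 31 around 24. These counts can only rise there, since fewer libraries must share a pattern. Over all entries the share lost ran from 4.03% to 6.10% around 2.30%, and the share gained from 4.94% to 10.2% around 3.25%. The share listed throughout ran from 64.5% to 67.7% around 62.8%. Against entries listed in both controls the share lost was 9.68%, and against entries listed in both α-KG libraries the share gained was 8.57%, each with 5.08% over all members, and the smaller denominators fix that rise. With 1 entry per symbol the difference was 6.0 entries, and with subunits of other names 7.0. With the replicate number as a block (replicate block) it was 6.5, which the balanced layout fixes, so this value says nothing about stability. The 2 numbers were not treated as pairs. Entry by entry, the deviations of same-numbered libraries correlated by 0.0478 over all entries, but this value cannot show a shift common to a whole list. Both second libraries listed more members than the first ones, so a pairing by number remains undecided. Taken by number, α-KG minus control was 6 entries for the first libraries and 7 for the second. A share resting on 3 of 59 genes, lists without scores and unknown depth set the precision here.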

Other observations

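Genes that act upstream of the mitochondrial ribosome are given here as counts without a test, beside 62.8% of all entries in all 4 libraries. Of 10 regulators of mitochondrial biogenesis, 9 were in all 4 libraries (90.0%), among them Esrra, Esrrg, Gabpa and Gabpb1, together with Nrf1, Yy1 and Myc. The coactivator gene Ppargc1a was missing from control 1 only. Of 12 entries for mitochondrial DNA maintenance, transcription and RNA processing, 8 were in all 4 libraries (66.7%, near the share of all entries), including Elac2, Fastk, Mtpap and Pnpt1, and also Tfam and Polrmt, which encode the packaging factor and the RNA polymerase of the organelle. Fastkd1, a mitochondrial RNA-binding protein gene, was gained, and Trmt10c, a subunit of the enzyme that trims mitochondrial tRNA, was lost. Polg2 was in α-KG 2 alone and Ssbp1 in α-KG 1 alone.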
